A study of Mus musculus with 2 samples.

Results

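The D and E cyclins and the Cdk inhibitors of the dorsal telencephalon were followed from dividing progenitors to neurons. The 9 genes were taken by symbol from the 32285 genes of the deposited feature tables, where each symbol had 1 row. They comprised the D-type cyclins Ccnd1 (ENSMUSG00000070348), Ccnd2 (ENSMUSG00000000184) and Ccnd3 (ENSMUSG00000034165), and the E-type cyclins Ccne1 (ENSMUSG00000002068) and Ccne2 (ENSMUSG00000028212). The inhibitors of the Cip/Kip family were Cdkn1a (p21, ENSMUSG00000023067), Cdkn1b (p27, ENSMUSG00000003031) and Cdkn1c (p57, ENSMUSG00000037664). Cdkn2c (p18, ENSMUSG00000028551) belongs to the Ink4 family.

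As background, D-type cyclins pair with the kinases Cdk4 and Cdk6 and start the phosphorylation of the retinoblastoma family of pocket proteins, which releases E2F transcription factors. E-type cyclins pair with Cdk2 and drive the entry into S phase. Ink4 inhibitors bind Cdk4 and Cdk6, whereas Cip/Kip inhibitors bind assembled cyclin-Cdk complexes and take part in cell cycle exit. In the developing cortex, radial glial cells (RGCs) divide at the ventricle and give rise to intermediate progenitor cells (IPCs), which mostly divide once more to produce excitatory neurons.

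Single-cell transcriptomes of EomesDot control embryos (genotype WT, E14.5) were examined in 2 libraries, named replicates 2 and 4 after their titles. Both libraries belong to 1 group without treatment, so cell classes were compared within the libraries and no comparison of animals was possible. The study drew on such embryonic data to predict signalling between cells, describes its embryos as C57BL/6J, and does not state how this strain relates to the EomesDot label. Nothing in the labels says whether the embryos shared a litter, so p-values measure the spread between these 2 libraries, which may be technical.

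Replicate 2 held 40267872 unique molecular identifiers (UMIs, tags that mark single captured transcripts) and replicate 4 held 49422007. After filtering, 1199 and 1923 cells remained with medians of 30810 and 22826 UMIs, and 3 barcodes occurred in both libraries, of which 1 was retained. The labelled dorsal tissue was recovered as RGC-like (287 and 467 cells), IPC-like (163 and 240), newborn neuron-like (79 and 183) and excitatory neuron-like cells (448 and 630). GABAergic neuron-like, Cajal-Retzius-like, hem or choroid plexus-like, fibroblast-like and endothelial-like cells were present as well. Classes were named from marker lists, and newborn neuron-like cells were a cluster with 9 of 13 excitatory neuron and 4 of 8 IPC markers raised. Of the IPC-like cells, a cluster of 130 cells had 7 IPC and 8 excitatory neuron markers raised and a cluster of 82 had 7 and 6, so the border between both classes depends on the clustering. None of the 9 genes took part in the clustering. Levels are given as CPM, the UMIs of a gene scaled to 1000000 UMIs of all cells of a class in 1 library, always with replicate 2 first.

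RGC-like and IPC-like cells were further divided by S and G2/M gene scores that held none of the 9 genes. Cells scoring for neither were called G1-like, which includes cells that have left the cycle. RGC-like cells comprised 101 and 160 S-like, 102 and 194 G2/M-like, and 84 and 113 G1-like cells. Among IPC-like cells, 18 and 34 were S-like, 25 and 38 G2/M-like, and 120 and 168 G1-like. These classes are ranges of a score, and 1 to 27 cells per class and library lay within 0.1 of a cut, except for G2/M-like IPC-like cells of replicate 4 with 0. The phase classes also differed in markers of their neighbours in the lineage. The 8 IPC markers together reached 1304 and 1453 CPM in G1-like RGC-like cells, against 118 and 213 CPM in S-like ones. The 13 excitatory neuron markers summed to 3201 and 3636 CPM in G2/M-like IPC-like cells and to 1509 and 1332 CPM in S-like ones. The part of these markers in the results below was not tested, beyond the values given for Cdkn1c.

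Promoter sequences were available from RefSeq (GRCm38.p6) for 5 of the 9 genes, with 8 start sites in all, while Ccnd1, Ccnd2, Ccne2 and Cdkn1c had no entry. Ccne1 and 1 start of Cdkn2c are shown because both were higher in dividing than in G1-like progenitors (values below). The 250 bases before the start are printed on the strand of the gene, at chr7:38107491-38107740 (minus strand) for Ccne1 and at chr4:109666757-109667006 (minus strand) for 1 of the starts of Cdkn2c. Capitals mark the GC box GGGCGG, searched on both strands.
Ccne1: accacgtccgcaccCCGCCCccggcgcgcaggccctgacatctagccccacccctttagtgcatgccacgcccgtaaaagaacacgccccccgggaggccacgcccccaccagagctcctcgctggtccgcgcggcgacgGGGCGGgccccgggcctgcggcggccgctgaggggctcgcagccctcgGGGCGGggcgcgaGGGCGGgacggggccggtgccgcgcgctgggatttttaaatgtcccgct
Cdkn2c: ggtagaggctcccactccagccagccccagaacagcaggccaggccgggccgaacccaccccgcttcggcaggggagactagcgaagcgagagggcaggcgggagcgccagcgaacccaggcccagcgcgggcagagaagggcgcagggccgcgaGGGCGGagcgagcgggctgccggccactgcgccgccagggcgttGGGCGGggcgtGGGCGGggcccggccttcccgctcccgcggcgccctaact
The Ccne1 window held 4 GC boxes, 34 CpG sites and 76.0% G or C, and the Cdkn2c window held 3 GC boxes, 29 CpG sites and 77.2% G or C. The other start of Cdkn2c, at chr4:109665373-109665622 (minus strand) and not printed, held 0 GC boxes, 6 CpG sites and 42.8% G or C. Members shown here by counts only held GC boxes as well. The starts of Ccnd3 had 2 and 1 (11 and 19 CpG sites). Those of Cdkn1a had 0 and 2 (2 and 19 CpG sites), and that of Cdkn1b had 1 (28 CpG sites). Over the windows of the same length at all 32851 starts, the medians were 6.0 CpG sites and 52.4% G or C, and 32.7% held a GC box. The E2F-type letters TTTCGCGC, TTTGGCGC and TTTCCCGC, searched on both strands, were not found in any of the 8 windows, against 0.256%, 0.417% and 0.895% of all windows. A match or its absence describes these letters in this window only.

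Among the D-type cyclins, Ccnd2 was lower in each later class of the lineage in both libraries, although only the last of the 3 steps passed the test. Its level was 651.3 and 789.3 CPM in RGC-like cells, 499.2 and 372.5 CPM in IPC-like cells, 162.1 and 142.3 CPM in newborn neuron-like cells, and 41.7 and 40.4 CPM in excitatory neuron-like cells. Both libraries thus gave the same order, with no overlap between neighbouring classes. RGC-like exceeded IPC-like cells by 0.60 (SE 0.52, edgeR adjusted p = 0.423), a difference called in 2 of 15 alternatives. Newborn neuron-like cells exceeded excitatory neuron-like cells by 1.82 on the log2 scale (SE 0.55, edgeR adjusted p = 0.0378), and this call was lost in 6 of 14 alternative analyses. IPC-like exceeded newborn neuron-like cells by 1.43 (SE 0.54, edgeR adjusted p = 0.0909), which did not pass but was called in 6 of 14 alternatives, whereas G1-like IPC-like cells alone exceeded them by 1.50 (SE 0.24, edgeR adjusted p = 0.000578). Cells were thinned to 5000 UMIs each, and shallower cells were left out. A Ccnd2 UMI was then seen in 89.5% and 89.8% of RGC-like and 84.8% and 76.0% of IPC-like cells. In newborn neuron-like cells it was seen in 46.8% and 40.2%, and in excitatory neuron-like cells in 14.4% and 16.3%. Over all cells without thinning, the shares in the same order were 93.7% and 95.3%, 96.9% and 95.4%, 81.0% and 72.1%, and 48.2% and 38.3%. Free RNA was not estimated, so its part in the Ccnd2 of excitatory neuron-like cells, which no longer divide, is not known. Their median depths were 35410 and 25618 UMIs, against 31324 and 25458 UMIs in RGC-like cells.

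**Figure D1:**
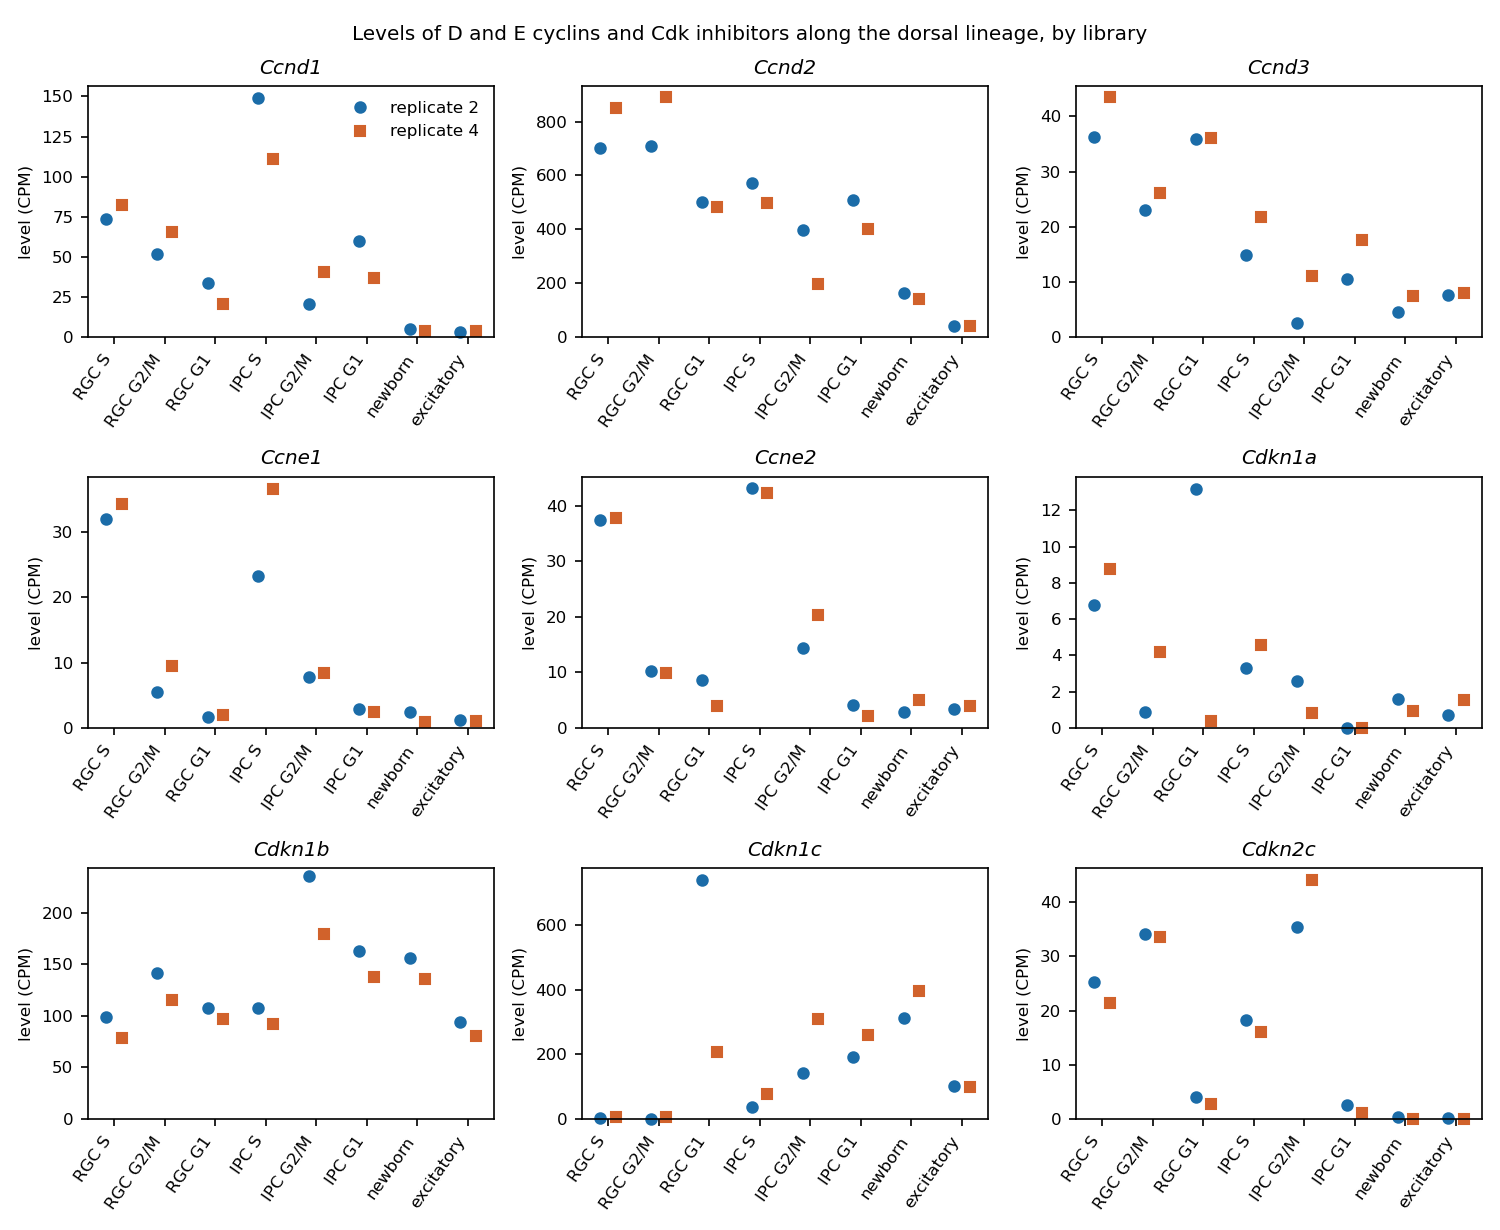
Levels (CPM, linear axes starting at 0) of the 9 genes in RGC-like and IPC-like cells by phase and in newborn and excitatory neuron-like cells, with 1 point per library. Ccnd2 and Ccnd1 were lowest in neurons in both libraries, Ccne1 and Ccne2 were highest in S-like cells among the progenitor phases, and Cdkn1c stood at 311.7 and 396.1 CPM in newborn neuron-like cells.

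Ccnd2 also varied with the phase. In RGC-like cells it stood at 702.5 and 849.9 CPM in S-like, 709.9 and 889.8 CPM in G2/M-like and 500.2 and 481.4 CPM in G1-like cells. In IPC-like cells the levels were 573.8 and 496.2 CPM in S-like, 399.1 and 195.8 CPM in G2/M-like and 508.4 and 400.0 CPM in G1-like cells. In RGC-like cells the dividing classes (the mean of S-like and G2/M-like) lay above G1-like cells by 0.70 (SE 0.20, edgeR adjusted p = 0.0218). In IPC-like cells S-like exceeded G2/M-like cells by 0.83 (SE 0.24, edgeR adjusted p = 0.0406), a call lost in 3 of 16 alternatives. The tests of whether these contrasts differ between RGC-like and IPC-like cells did not pass, with differences of -0.85 (SE 0.33, edgeR adjusted p = 0.273) for S against G2/M and 0.92 (SE 0.28, edgeR adjusted p = 0.106) for dividing against G1, and were called in 1 and 3 of 16 alternatives. Dividing RGC-like cells exceeded dividing IPC-like cells by 0.96 (SE 0.17, edgeR adjusted p = 0.000577), and all 16 alternatives kept this call. The RGC-like difference between dividing and G1-like cells was lost in 6 of 16 alternatives, and fell to 0.18 (edgeR adjusted p = 0.638) when the cluster described for Cdkn1c was left out.

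Ccnd1 was high in progenitors and low in neurons. RGC-like cells held 54.8 and 61.9 CPM and IPC-like cells 64.7 and 48.9 CPM, whereas newborn neuron-like cells held 4.9 and 3.6 CPM and excitatory neuron-like cells 3.3 and 4.0 CPM. Progenitor and neuron values were far apart in both libraries, and IPC-like exceeded newborn neuron-like cells by 3.69 (SE 0.25, edgeR adjusted p = 3.4e-06). G1-like IPC-like cells alone, at 59.6 and 36.6 CPM, still exceeded newborn neuron-like cells by 3.45 (SE 0.38, edgeR adjusted p = 3.2e-05). Both calls remained under every alternative that could be fitted.

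The phase in which Ccnd1 was highest was S in both progenitors. RGC-like cells held 73.5 and 82.5 CPM in S-like, 52.0 and 65.6 CPM in G2/M-like and 33.8 and 20.6 CPM in G1-like cells, and dividing exceeded G1-like cells by 1.34 (SE 0.26, edgeR adjusted p = 0.00184). In S-like IPC-like cells Ccnd1 reached 149.2 and 110.9 CPM, against 20.9 and 40.7 CPM in G2/M-like ones, a difference of 1.96 (SE 0.34, edgeR adjusted p = 0.00214) that was 2.80 without replicate 4. These levels rested on few cells. The 2 highest cells carried 47.8% and 38.1% of the Ccnd1 UMIs of S-like IPC-like cells, and in replicate 4 a single G2/M-like cell carried 37 of 48 UMIs. IPC-like dividing and G1-like cells differed by 0.41 (SE 0.26, edgeR adjusted p = 0.303), with values from -0.14 to 1.56 over 16 alternatives, of which 3 called it higher in dividing cells. The S to G2/M difference was smaller in RGC-like than in IPC-like cells (edgeR value -1.53, SE 0.43), with an unadjusted p of 0.00326 from the fit over all genes but an edgeR adjusted p of 0.114, and was called in 4 of 16 alternatives. The value was -1.03 without replicate 2 and -2.25 without replicate 4. The corresponding test for dividing against G1 gave 0.93 (SE 0.36, edgeR adjusted p = 0.223) and was called with doublets kept (1.40, edgeR adjusted p = 0.0241). Without the cluster described for Cdkn1c, the RGC-like difference between dividing and G1-like cells was 0.63 (edgeR adjusted p = 0.2).

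Ccnd3 was higher in RGC-like than in IPC-like cells. RGC-like cells held 31.2 and 34.2 CPM, IPC-like cells 9.8 and 16.9 CPM, and the levels were 4.5 and 7.5 CPM in newborn neuron-like and 7.6 and 8.0 CPM in excitatory neuron-like cells. RGC-like exceeded IPC-like cells by 1.15 (SE 0.25, edgeR adjusted p = 0.00436) and dividing RGC-like exceeded dividing IPC-like cells by 1.35 (SE 0.28, edgeR adjusted p = 0.00234), and both calls were kept in every alternative. The latter difference was 2.16 without replicate 4. By phase, RGC-like cells held 36.3 and 43.5 CPM in S-like, 23.1 and 26.0 CPM in G2/M-like and 35.8 and 36.1 CPM in G1-like cells. With an Lhx2 UMI, G1-like RGC-like cells held 25.9 and 27.4 CPM. IPC-like cells exceeded newborn neuron-like cells by 1.02 (SE 0.33, edgeR adjusted p = 0.0485), as did their G1-like cells by 1.09 (SE 0.36, edgeR adjusted p = 0.0499). These 2 calls lay at the threshold and were lost in 7 of 14 and 8 of 15 alternatives.

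The makeup of the D-type cyclin UMIs differed between cell classes. Because capture can differ between genes, shares were compared between classes only. Ccnd2 made up 88.3% (95% Clopper-Pearson interval 87.5 to 89.1%) and 89.2% (88.5 to 89.7%) of D-type cyclin UMIs in RGC-like cells, and 94.6% and 92.8% in newborn neuron-like cells. The share of Ccnd1 in S-like IPC-like cells was 20.2% (16.6 to 24.3%) and 17.6% (14.5 to 21.1%), above that of S-like RGC-like cells at 9.0% (8.0 to 10.2%) and 8.5% (7.6 to 9.4%). Over all phases the share was 11.3% and 11.2% in IPC-like and 7.4% and 7.0% in RGC-like cells. Ccnd3 made up 14.4% and 15.2% in excitatory neuron-like cells, where the level of Ccnd2 was low. In endothelial-like cells Ccnd1 made up 62.0% (51.7 to 71.5%) and 65.0% (56.6 to 72.8%) and Ccnd2 only 8.0% and 8.4%, and in fibroblast-like cells Ccnd3 made up 40.5% and 33.9%. Few cells carried some of these UMIs, as 2 cells held 49 of the 62 Ccnd1 UMIs of endothelial-like cells in replicate 2 and 43 of 93 in replicate 4. In S-like IPC-like cells 2 cells held 43 of 90 and 37 of 97 Ccnd1 UMIs, so the share there also rests on few cells. The 6 erythroid markers summed to 91.9 and 45558 CPM in endothelial-like cells, and their part was not tested. The intervals cover counting error only. These classes of few cells were singled out after their values had been seen and were not tested.

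**Figure D2:**
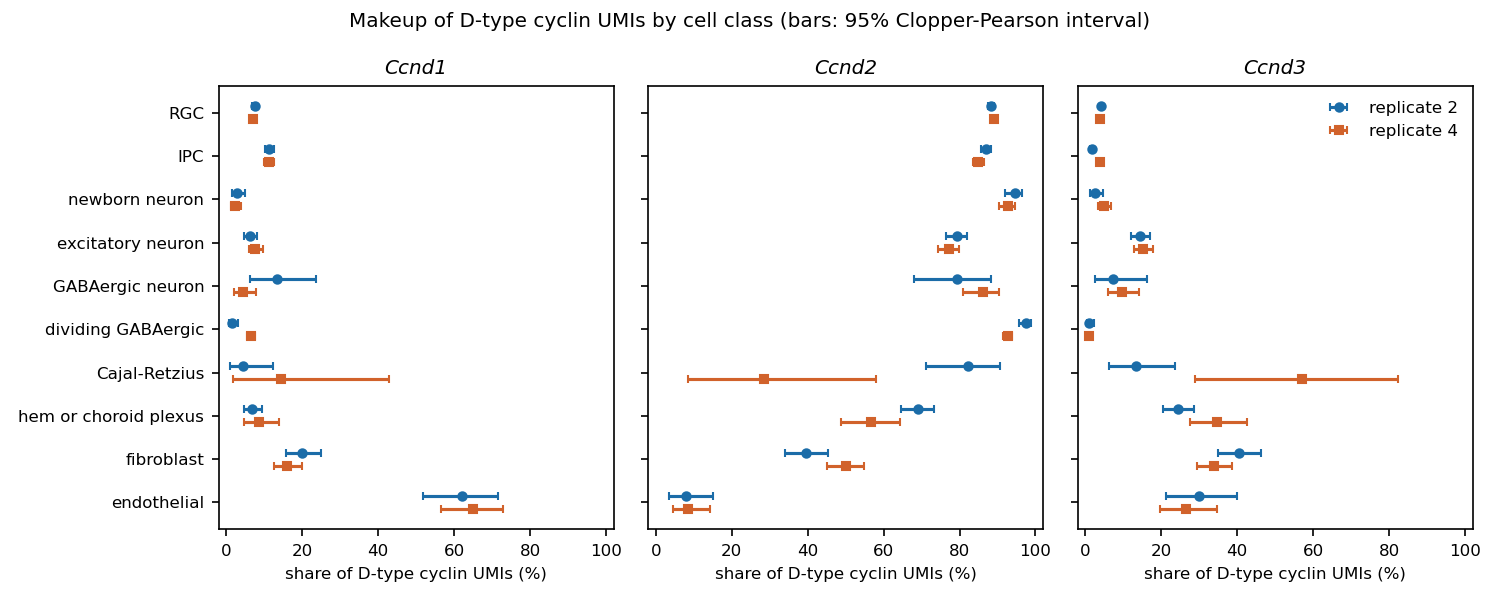
Share of D-type cyclin UMIs (%) contributed by Ccnd1, Ccnd2 and Ccnd3 in each cell class, with 1 point per library and 95% Clopper-Pearson intervals. Ccnd2 predominates in RGC-like cells (88.3% and 89.2%), and Ccnd1 stands at 62.0% and 65.0% in endothelial-like cells, where 2 cells hold 49 of 62 Ccnd1 UMIs of replicate 2.

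Among the progenitor phases, both E-type cyclins were highest in S-like cells. Ccne1 was at 32.0 and 34.2 CPM in S-like, 5.6 and 9.5 CPM in G2/M-like and 1.6 and 2.0 CPM in G1-like RGC-like cells. In IPC-like cells the same phases held 23.2 and 36.6 CPM, 7.9 and 8.5 CPM, and 2.9 and 2.5 CPM. The order of the phases was therefore the same in both progenitors and libraries, without overlap. S-like exceeded G2/M-like cells by 2.12 (SE 0.30, edgeR adjusted p = 0.000692) in RGC-like and by 1.86 (SE 0.42, edgeR adjusted p = 0.0111) in IPC-like cells. Dividing exceeded G1-like cells by 3.13 (SE 0.40, edgeR adjusted p = 5.36e-05) and by 2.53 (SE 0.39, edgeR adjusted p = 0.00041). After thinning, a Ccne1 UMI was seen in 16.3% and 17.5% of S-like and 1.0% and 4.0% of G2/M-like RGC-like cells (55.4% and 52.5%, and 12.7% and 15.5% unthinned), and in 0.5% and 0.7% of excitatory neuron-like cells.

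Ccne2 showed the same order of phases in RGC-like cells, with 37.5 and 37.8 CPM in S-like, 10.2 and 9.9 CPM in G2/M-like and 8.6 and 4.0 CPM in G1-like cells. In IPC-like cells it stood at 43.1 and 42.3 CPM, 14.4 and 20.3 CPM, and 4.1 and 2.2 CPM. S-like exceeded G2/M-like cells by 1.93 (SE 0.27, edgeR adjusted p = 0.000696) in RGC-like and by 1.22 (SE 0.35, edgeR adjusted p = 0.0387) in IPC-like cells, the latter lost in 4 of 16 alternatives. Dividing exceeded G1-like cells by 1.64 (SE 0.30, edgeR adjusted p = 0.00125) in RGC-like cells, or 2.30 without replicate 2. The corresponding difference in IPC-like cells was 3.11 (SE 0.34, edgeR adjusted p = 2.1e-05), or 3.74 without replicate 2. A difference of -1.47 (SE 0.48) between the progenitors in this contrast did not pass (edgeR adjusted p = 0.13). It was called with doublets kept (-1.67, edgeR adjusted p = 0.0384).

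In newborn neuron-like cells both E-type cyclins were low. Their levels were 2.4 and 1.0 CPM for Ccne1 and 2.8 and 5.1 CPM for Ccne2, and IPC-like cells exceeded them by 2.20 (SE 0.46, edgeR adjusted p = 0.00462) and 1.37 (SE 0.33, edgeR adjusted p = 0.0107). The Ccne1 value was 3.1 without replicate 2 and 1.26 without replicate 4. The 2 cyclins were called higher in IPC-like cells in 13 and 11 of 14 alternatives. Differences of 0.86 (SE 0.31, edgeR adjusted p = 0.0518) for Ccne1 and 0.60 (SE 0.25, edgeR adjusted p = 0.0946) for Ccne2 between RGC-like and IPC-like cells did not pass, but were called in 11 and 7 of 15 alternatives.

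**Figure D3:**
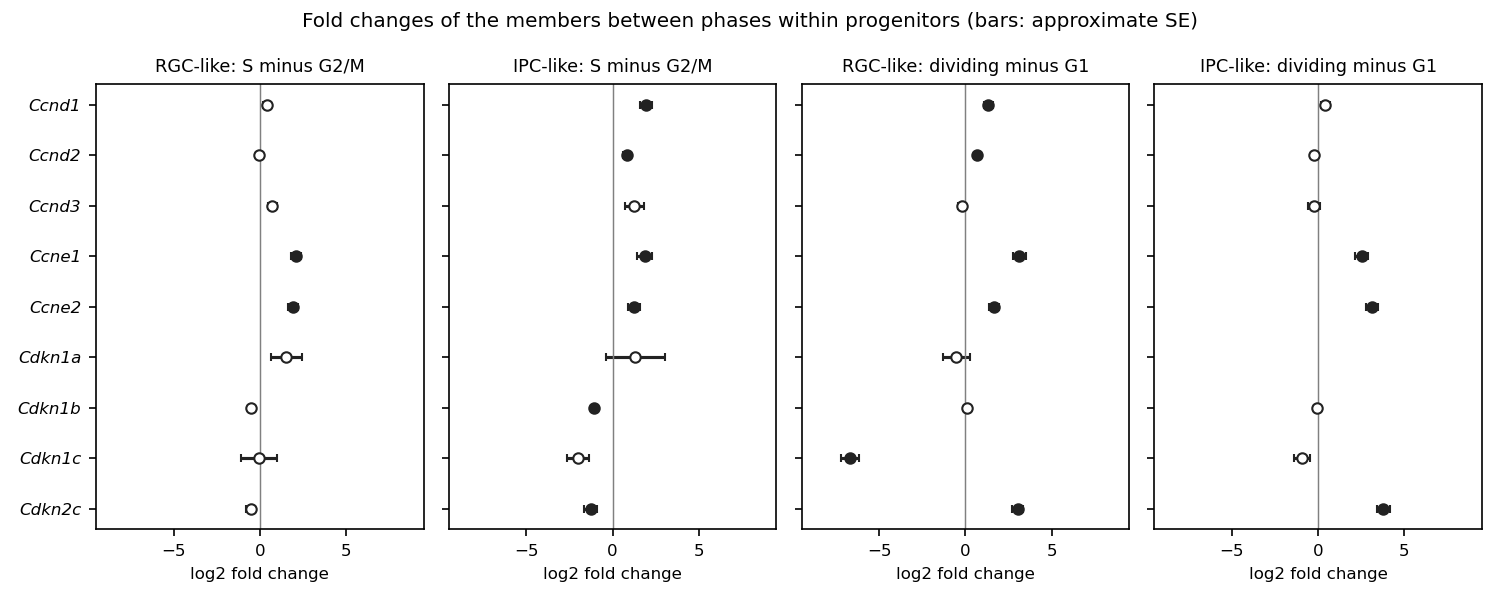
Log2 fold changes of the 9 genes between phases in RGC-like and IPC-like cells, with bars of 1 approximate SE and filled points for an edgeR adjusted p under 0.05. Ccne1 and Ccne2 lie right of 0 in all 4 panels and Cdkn1c at -6.69 in RGC-like cells, and Cdkn1a is left out of the last panel because G1-like IPC-like cells held 0 UMIs of it.

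Cdkn2c, the Ink4 inhibitor, was present in dividing progenitors and nearly absent from G1-like cells and neurons. RGC-like cells held 25.2 and 21.5 CPM in S-like, 34.2 and 33.7 CPM in G2/M-like and 4.1 and 2.8 CPM in G1-like cells. In IPC-like cells the levels were 18.2 and 16.0 CPM, 35.3 and 44.1 CPM, and 2.6 and 1.1 CPM. Unlike the E-type cyclins, Cdkn2c thus stood higher in G2/M-like than in S-like cells in both libraries, with a difference of -1.28 (SE 0.36, edgeR adjusted p = 0.0371) in IPC-like cells that was lost in 10 of 16 alternatives. Dividing exceeded G1-like cells by 3.04 (SE 0.33, edgeR adjusted p = 1.34e-05) in RGC-like and by 3.79 (SE 0.39, edgeR adjusted p = 9.46e-06) in IPC-like cells. Both calls were kept in all 16 alternatives, and the IPC-like value was 4.58 without replicate 2.

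Newborn neuron-like cells held 1 and 0 Cdkn2c UMIs in 79 and 183 cells, and 3 UMIs would correspond to 1.22 and 0.724 CPM there. IPC-like cells held 117 UMIs over both libraries, which gives a ratio of CPM of 73.9 to the single UMI of newborn neuron-like cells, with a 95% counting interval from 13.0 to 2942. The difference passed (edgeR adjusted p = 0.000309), whereas its fitted size depends on the prior count. For G1-like IPC-like cells, with 9 and 4 UMIs, the ratio was 12.2 (1.83 to 518, edgeR adjusted p = 0.0285), a call lost in 5 of 14 alternatives. Excitatory neuron-like cells held 4 and 1 UMIs in 448 and 630 cells. A Cdkn2c UMI was found after thinning in 16.5% and 13.3% of G2/M-like RGC-like cells (53.9% and 47.9% unthinned) and in 0% of newborn and excitatory neuron-like cells (1.3% and 0%, and 0.9% and 0.2% unthinned). RGC-like cells exceeded IPC-like cells by 0.92 (SE 0.36), which did not pass (edgeR adjusted p = 0.0745) but was called in 11 of 15 alternatives, with values up to 1.76.

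Cdkn1b was measured in every class of the lineage, with its highest values in G2/M-like IPC-like cells. RGC-like cells held 99.0 and 78.6 CPM in S-like, 142.0 and 115.6 CPM in G2/M-like and 107.9 and 97.5 CPM in G1-like cells. IPC-like cells held 107.8 and 92.6 CPM, 235.5 and 179.7 CPM, and 163.0 and 137.7 CPM in these phases. S-like cells lay below G2/M-like cells in both progenitors and libraries. In IPC-like cells the difference was -1.08 (SE 0.19, edgeR adjusted p = 0.00198). In RGC-like cells it was -0.51 (SE 0.16, edgeR adjusted p = 0.0819), which passed with the library as a block (edgeR adjusted p = 0.00364) and when all genes of at least 1 count were tested (edgeR adjusted p = 0.0496).

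From IPC-like to newborn neuron-like cells no call was made for Cdkn1b. RGC-like cells held 117.5 and 99.0 CPM and IPC-like cells 167.7 and 139.5 CPM, and the levels were 156.0 and 135.6 CPM in newborn neuron-like and 94.5 and 80.7 CPM in excitatory neuron-like cells. The values of IPC-like and newborn neuron-like cells overlapped between libraries. RGC-like cells lay below IPC-like cells (edgeR value -0.63, SE 0.17, adjusted p = 0.0159), and dividing RGC-like below dividing IPC-like cells (edgeR value -0.46, SE 0.12, adjusted p = 0.0101). Newborn neuron-like exceeded excitatory neuron-like cells by 0.66 (SE 0.18, edgeR adjusted p = 0.0196) in all 14 alternatives. GABAergic neuron-like cells, at 56.0 and 49.5 CPM, lay below excitatory neuron-like cells (edgeR value -0.83, SE 0.19, adjusted p = 0.00705), a call lost in 4 of 15 alternatives.

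Cdkn1c was almost absent from dividing RGC-like cells and present in IPC-like and newborn neuron-like cells. S-like RGC-like cells held 2.2 and 6.3 CPM (7 and 26 UMIs) and G2/M-like ones 1.8 and 6.7 CPM (6 and 35 UMIs). IPC-like cells held 36.5 and 76.6 CPM in S-like, 142.6 and 310.3 CPM in G2/M-like and 191.1 and 260.2 CPM in G1-like cells. The level was 311.7 and 396.1 CPM in newborn neuron-like and 101.7 and 98.5 CPM in excitatory neuron-like cells, with no overlap between these 2 classes. Newborn neuron-like cells exceeded excitatory neuron-like cells by 1.76 (SE 0.46, edgeR adjusted p = 0.0181), a call lost in 4 of 14 alternatives. IPC-like and newborn neuron-like cells were not told apart (-0.89, SE 0.45, edgeR adjusted p = 0.209), nor were G1-like IPC-like and newborn neuron-like cells (-0.73, SE 0.49, edgeR adjusted p = 0.352), and the call depended on the alternative. Cdkn1c was called lower in IPC-like cells in 5 of 14 alternatives and in G1-like IPC-like cells in 1 of 15, and the sign turned in 4 of 14 and 6 of 15. Over all phases RGC-like cells, at 199.0 and 49.1 CPM, were not told apart from IPC-like cells, at 163.9 and 242.3 CPM (-0.84, SE 0.45, edgeR adjusted p = 0.181), but were called lower in 9 of 15 alternatives, with values down to -5.69. The value was -2.43 without replicate 2 and 0.18 without replicate 4. With an Lhx2 UMI, RGC-like cells held 48.9 and 49.1 CPM, and without cells lacking an Lhx2 UMI the difference was -2.17 (edgeR adjusted p = 2.59e-05). Dividing RGC-like cells lay below dividing IPC-like cells (edgeR value -4.72, SE 0.58, adjusted p = 2.76e-05) in all 16 alternatives. Within IPC-like cells neither S against G2/M (-2.01, SE 0.64, edgeR adjusted p = 0.0594) nor dividing against G1 (-0.97, SE 0.46, edgeR adjusted p = 0.169) passed, and they were called in 9 and 7 of 16 alternatives with the same sign.

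Cdkn1c was unevenly spread over single cells of a class. At least 10 Cdkn1c UMIs were counted in 38.0% and 34.4% of newborn neuron-like cells (30 and 63 cells), in 16.7% and 17.9% of G1-like IPC-like cells (20 and 30) and in 5 and 11 G2/M-like IPC-like cells. In excitatory neuron-like cells 6.03% and 4.13% reached this count, whereas no S-like or G2/M-like RGC-like cell did. The median was 6 and 6 UMIs per newborn neuron-like cell and 1 and 2 UMIs per G1-like IPC-like cell. Thinned to 5000 UMIs, 55.7% and 70.1% of newborn neuron-like, 38.4% and 32.7% of excitatory neuron-like and 1.1% and 1.3% of S-like RGC-like cells held a UMI (86.1% and 84.7%, 83.0% and 71.3%, and 5.9% and 12.5% unthinned).

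G1-like RGC-like cells, in contrast, held 740.6 and 206.8 CPM of Cdkn1c, and dividing RGC-like cells lay below them (log2 fold change -6.69, edgeR SE 0.53, adjusted p = 6.31e-07). The value was -4.97 without replicate 2 and -8.56 without replicate 4. In replicate 2, 2 cells carried 1380 of the 1799 UMIs (938 and 442), and their leading genes were the muscle genes Actc1, Ttn and Myog, with no UMI of the RGC and dorsal markers Sox2 and Lhx2. Nearly all remaining UMIs came from 1 cluster that was named RGC-like by 8 of 9 RGC markers but also had 6 of 8 IPC markers raised. This cluster made up 44 of 84 and 71 of 113 of the G1-like RGC-like cells and held 1301.3 and 293.4 CPM. Restricted to cells with an Lhx2 UMI, which leaves out the 2 muscle gene cells, it held 332.4 and 300.9 CPM. The other G1-like RGC-like cells held 9.5 and 4.0 CPM (10 and 3 UMIs in 40 and 42 cells). All 13 and 18 G1-like RGC-like cells with at least 10 Cdkn1c UMIs belonged to that cluster.

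Leaving out RGC-like and IPC-like cells without an Lhx2 UMI kept the calls of all 39 called differences of the 9 genes. Of these, 3 between newborn and excitatory and 2 between GABAergic and excitatory neuron-like cells involved no class that lost cells. Leaving out the cluster with raised IPC markers moved the Cdkn1c difference between dividing and G1-like RGC-like cells to -0.86 (edgeR adjusted p = 0.635). The G1-like cells of the same cluster held less Ccnd1 and Ccnd2, with 16.7 and 17.5 CPM of Ccnd1 and 368.1 and 352.8 CPM of Ccnd2, against 56.0 and 27.8 CPM and 672.4 and 782.4 CPM in the other G1-like RGC-like cells. Ccnd3 did not share this order, at 34.2 and 40.7 CPM against 37.9 and 25.2 CPM. Restricted to cells with an Lhx2 UMI, the cluster held 15.4 and 28.2 CPM of Ccnd3, 11.4 and 15.8 CPM of Ccnd1 and 409.6 and 364.9 CPM of Ccnd2 in G1-like cells. In S-like cells the order of Ccnd1 was the opposite, as the 9 and 27 S-like cells of the cluster held 132.9 and 138.9 CPM against 69.5 and 70.6 CPM in the other S-like RGC-like cells. With an Lhx2 UMI, these S-like cells of the cluster held 11.6 and 115.9 CPM, so that replicate 2 lay below the other cells. The clustering did not use these genes, and the differences within S-like and G1-like RGC-like cells were not tested.

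**Figure D4:**
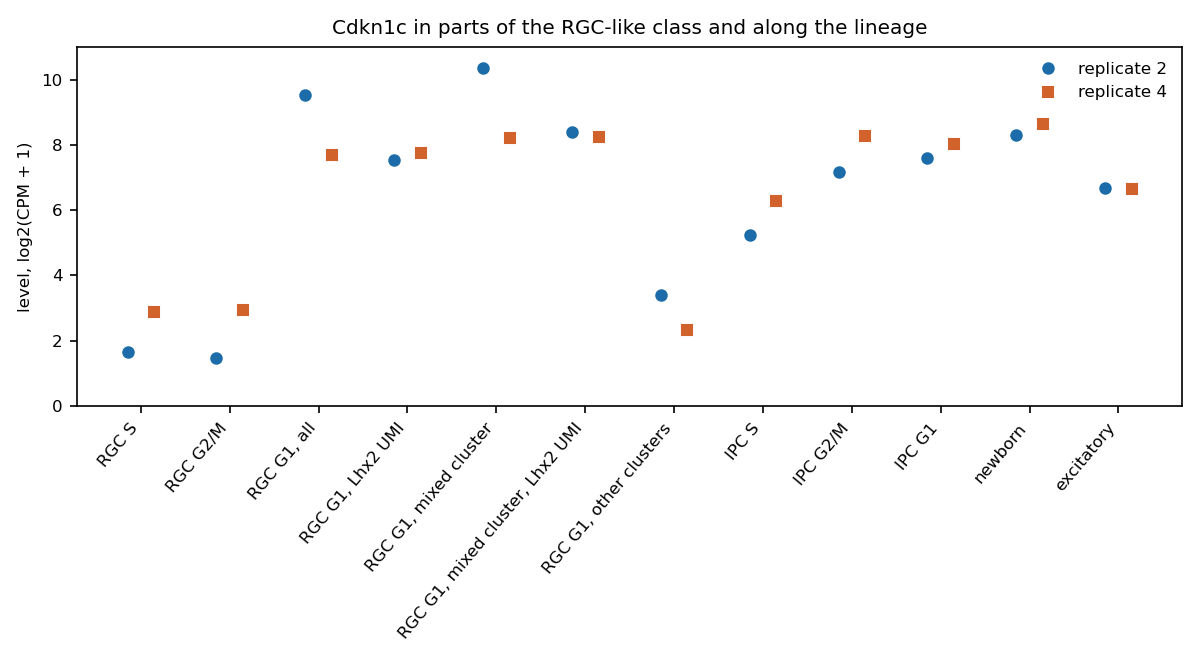
Cdkn1c level, log2(CPM + 1), in RGC-like cells by phase, in parts of the G1-like RGC-like cells and along the lineage, with 1 point per library. The cluster with raised IPC markers (1301.3 and 293.4 CPM, or 332.4 and 300.9 CPM with an Lhx2 UMI) stands far above the other G1-like RGC-like cells (9.5 and 4.0 CPM), and 2 muscle gene cells carry 1380 of its UMIs in replicate 2.

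Cdkn1a was low in the whole dorsal lineage. RGC-like cells held 6.3 and 5.0 CPM (57 and 59 UMIs) and IPC-like cells 0.8 and 0.9 CPM (4 and 5 UMIs). The difference of 2.54 (SE 0.64, edgeR adjusted p = 0.0101) was lost in 2 of 15 alternatives. Its sign turned with at least 500 genes per cell. The RGC-like class held some microglia transcripts: its 5 microglia markers, all detected, summed to 65.4 and 70.7 CPM, against 4.4 and 3.9 CPM in IPC-like cells, of which 1 and 4 were detected. In the cluster with raised IPC markers, 9 and 13 cells without an Lhx2 UMI, other than the 2 muscle gene cells, were led by the macrophage and microglia genes Lyz2, Pf4, C1qa and Tyrobp and held 1 Sox2 UMI in all. RGC-like cells with an Lhx2 UMI held 3.2 and 4.8 CPM of Cdkn1a, and the call stayed without the other cells. In G1-like RGC-like cells of replicate 2, 29 of 32 Cdkn1a UMIs came from 2 cells. Dividing against G1-like RGC-like cells gave -0.54 (SE 0.79, edgeR adjusted p = 0.681), with 3.86 without replicate 2 and -2.41 without replicate 4, and 2.39 (edgeR adjusted p = 0.0421) without cells lacking an Lhx2 UMI. G1-like IPC-like cells held 0 UMIs in both libraries, where 3 UMIs would be 0.877 and 0.826 CPM. Newborn neuron-like cells held 1.6 and 1.0 CPM and excitatory neuron-like cells 0.7 and 1.5 CPM. GABAergic neuron-like cells exceeded excitatory neuron-like cells by 2.85 (SE 0.56, edgeR adjusted p = 0.00282), with 2.5 and 13.2 CPM, yet 22 of 38 UMIs of replicate 4 came from 1 cell the value was 1.63 without that library, and the call was lost or reversed in 5 of 15 alternatives.

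Outside the lineage, Cajal-Retzius-like cells stood apart in Cdkn1a, at 315.0 and 262.2 CPM (228 and 245 UMIs in 21 and 34 cells). After thinning, 47.6% and 45.2% of them held a Cdkn1a UMI (76.2% and 61.8% unthinned), against 0.7% and 1.1% of excitatory neuron-like cells (2.2% and 3.7% unthinned). Their 2 highest cells carried 35.5% and 44.5% of the UMIs, so the level was not set by single cells alone. These early-born neurons express Trp73, a member of the p53 family and one of the markers used to name them, at 252.8 and 367.1 CPM. Of the 10 genes of p53 and its targets, Phlda3 stood at 69.1 and 43.9 CPM, against 2.6 and 2.1 CPM in excitatory neuron-like cells, and Eda2r at 26.3 and 23.5 CPM against 0.5 and 0.5 CPM. Ccng1, Bbc3, Sesn2 and Zmat3 were also at higher levels in both libraries. Bax (211.4 and 204.4 CPM against 144.5 and 143.3 CPM), Mdm2 (66.3 and 84.5 CPM against 55.1 and 53.3 CPM) and Trp53inp1 (63.6 and 73.8 CPM against 53.8 and 54.5 CPM) differed less, and Trp53 itself was not higher, at 59.4 and 43.9 CPM against 61.0 and 54.9 CPM. These levels were not particular to Cajal-Retzius-like cells, as hem or choroid plexus-like cells held 54.5 and 58.5 CPM of Ccng1 (44.2 and 27.8 CPM in Cajal-Retzius-like cells), 50.4 and 60.0 CPM of Zmat3 (44.2 and 43.9 CPM) and 38.8 and 21.9 CPM of Phlda3. Hem or choroid plexus-like cells held 74.3 and 74.6 CPM of Cdkn1a, and endothelial-like cells 47.7 and 76.7 CPM.

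Other classes outside the lineage had their own leading members. Dividing GABAergic-like cells held 2425.1 and 1883.0 CPM of Ccnd2, above any other class in both libraries, although replicate 2 contributed only 9 such cells. Their 2 highest cells carried 45.0% and 21.6% of these UMIs. Fibroblast-like cells held 1408.1 and 1004.4 CPM of Cdkn1c, of which 2 cells carried 36.9% and 41.9% of the UMIs, and 153.2 and 139.1 CPM of Ccnd3. Endothelial-like cells held 211.1 and 237.9 CPM of Ccnd1 in 9 and 18 cells, of which 2 cells carried 79.0% and 46.2% of the UMIs. These values were chosen after they had been seen and are given as a description without a test.

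**Figure D5:**
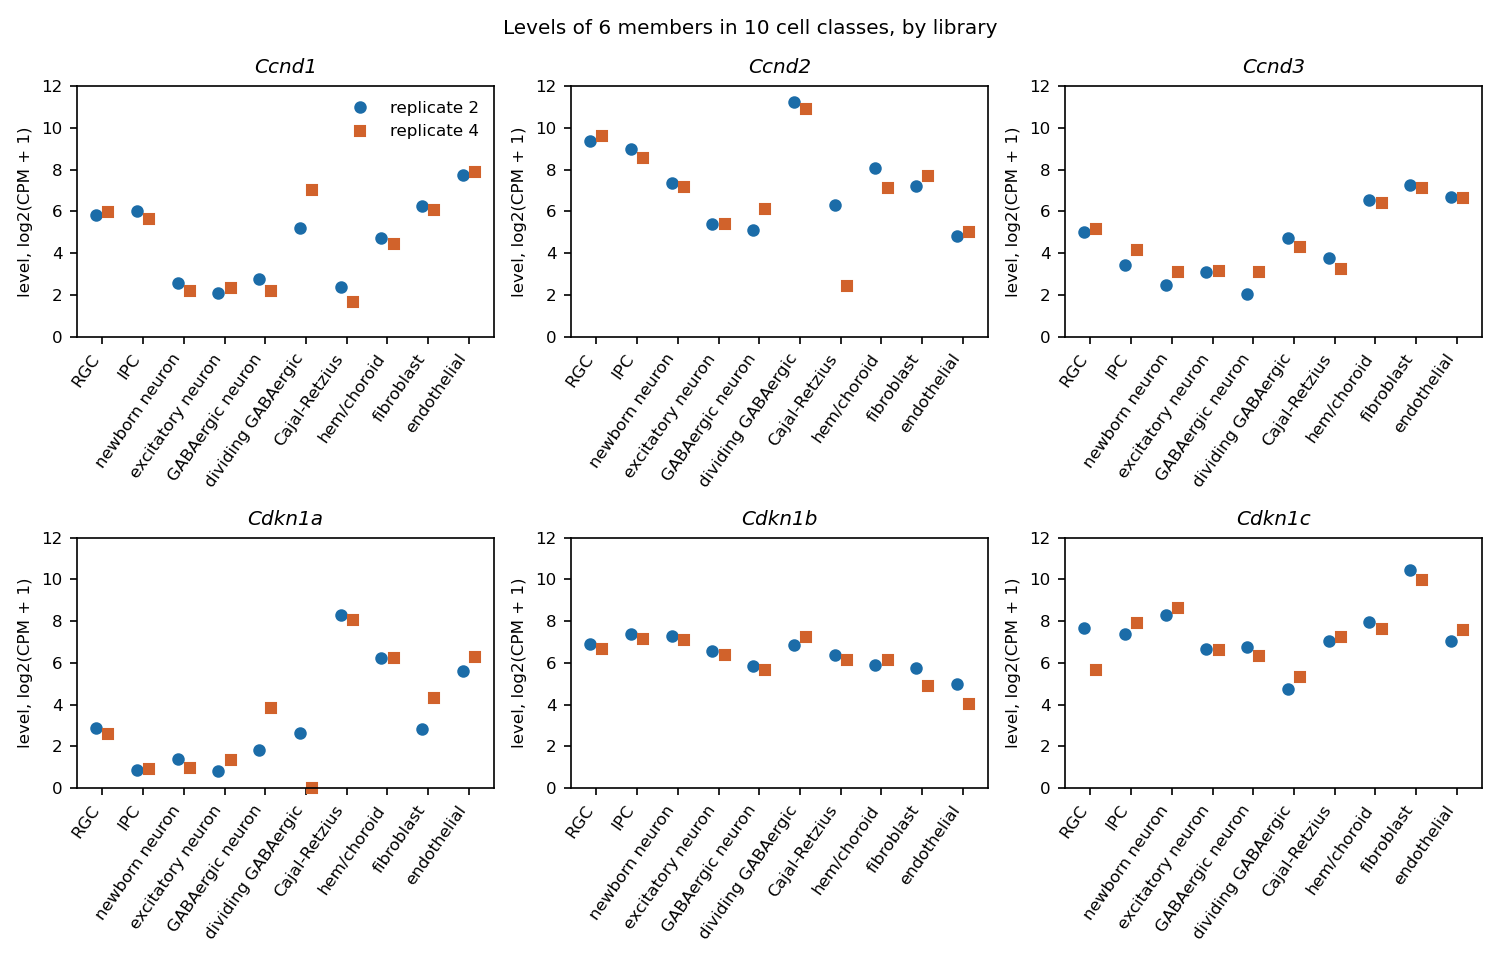
Levels, log2(CPM + 1), of 6 of the genes in 10 cell classes, with 1 point per library. Cdkn1a is high in Cajal-Retzius-like cells (315.0 and 262.2 CPM), Cdkn1c in fibroblast-like cells (1408.1 and 1004.4 CPM) and Ccnd2 in dividing GABAergic-like cells (2425.1 and 1883.0 CPM).

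Counted over the 9 genes, the contrasts of dividing against G1-like progenitors called mostly higher levels in dividing cells. Of the 9 genes, 5 were higher and 1 lower in dividing than in G1-like RGC-like cells. Of all genes tested, 24.5% were called in this contrast (12.6% higher and 11.9% lower). The calls of Ccnd1, Ccnd2 and Cdkn1c in it were lost when the cluster with raised IPC markers was left out. In IPC-like cells 3 were higher and none lower (19.1% of all genes called, 9.54% higher and 9.59% lower), namely Ccne1, Ccne2 and Cdkn2c. For S against G2/M, 2 were higher in RGC-like cells (5.24% of all genes called, 2.83% higher), and 4 were higher and 2 lower in IPC-like cells (11.8% called, 5.86% higher and 5.98% lower). The median log2 fold change of the 9 genes was 0.70 and 0.41 for dividing against G1 in RGC-like and IPC-like cells, against -0.03 and -0.14 over all genes tested. For S against G2/M the medians were 0.43 and 1.22, against 0.01 and 0.01.

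Between classes, IPC-like cells exceeded newborn neuron-like cells in 5 of the 9 genes (17.8% of all genes called, 9.39% higher), with a median of 1.37 against 0.01 over all genes. G1-like IPC-like cells exceeded them in 4 (17.6% called, 8.48% higher and 9.1% lower). RGC-like and IPC-like cells differed in 3 of the 9 genes, a share near that over all genes (29.9%), and dividing RGC-like and IPC-like cells in 4 (32.9%, with 18.9% higher and 14.0% lower in RGC-like cells), of which 2 were higher and 2 lower. Newborn and excitatory neuron-like cells differed in 3 (16.9%), all higher in newborn neuron-like cells (6.38% of all genes), and GABAergic and excitatory neuron-like cells in 2 (20.3%), 1 higher (8.15%) and 1 lower (12.1%). Of the tests of whether a contrast differed between RGC-like and IPC-like cells, S against G2/M called 0 of the 9 genes with edgeR (1.1% of all genes called, 0.613% higher and 0.482% lower), where Ccnd1, Ccnd2 and Cdkn1b had an unadjusted p under 0.05. Dividing against G1 called 1 (3.12% of all genes called, 2.12% lower), Cdkn1c.

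The partners and targets of these genes were counted from lists of the pathway. Of the 13 pocket protein and E2F genes, 8 were higher and none lower in dividing than in G1-like RGC-like cells (12.6% of all genes higher), among them the repressors E2f7 and E2f8 with log2 fold changes of 5.07 and 3.58, the activator E2f1 with 1.10 and the pocket protein Rbl1 with 1.94. In IPC-like cells 7 were higher (9.54% of all genes), with E2f8 at 6.60, E2f7 at 4.92 and Rbl1 at 2.39. The medians of the 13 were 1.10 and 1.23, against -0.03 and -0.14 over all genes tested. IPC-like exceeded newborn neuron-like cells in 8 of the 13 (9.39% of all genes), with a median of 0.78 against 0.01 over all genes. Dividing RGC-like cells exceeded dividing IPC-like cells in 1 (18.9% of all genes), E2f5 (0.78), and lay below them in 3 (14.0%), namely E2f1 (-1.30), the retinoblastoma gene Rb1 (-1.02) and Tfdp2 (-0.41).

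Of the 6 kinases and kinase partners, Cdk2, the partner of E-type cyclins, and Cdk6, a partner of D-type cyclins, were higher in IPC-like than in newborn neuron-like cells (log2 fold changes 2.96 and 2.54, 9.39% of all genes higher). Both were also higher in dividing than in G1-like RGC-like cells (1.68 and 1.26, 12.6% of all genes higher), and Cdk7, the kinase that activates Cdks, was lower (-0.69). Newborn neuron-like cells in turn exceeded excitatory neuron-like cells in Cdk6 (2.51), Mnat1 (0.94) and Cdk4 (0.76), where 6.38% of all genes were higher. Of 3 further inhibitors of the list 1 was tested, Cdkn2d (p19 of the Ink4 family). It was lower in S-like than in G2/M-like cells (-1.17 in RGC-like and -1.70 in IPC-like cells) and higher in dividing than in G1-like cells (1.09 and 1.64). Among 6 genes of turnover and activation, Skp2, a subunit of the ligase that degrades Cdkn1b, and its cofactor Cks1b were higher in dividing than in G1-like cells of RGC-like (1.55 and 1.87) and IPC-like cells (1.55 and 2.46), where 12.6% and 9.54% of all genes were higher. Cdkn1b RNA was not called between dividing and G1-like cells, and its protein was not measured.

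Of 10 genes of p53 and its targets, Phlda3 was higher (3.03), and Trp53inp1 (-2.42) and Mdm2 (-0.61) were lower, in RGC-like than in IPC-like cells, a share near the 29.9% of all genes called. Stress genes moved with several contrasts. Of the 10 tested between classes, Jun (2.51), Fos (1.98) and Hspa1a (1.34) were higher in RGC-like than in IPC-like cells (15.2% of all genes higher), and Jun (1.22) was higher in IPC-like than in newborn neuron-like cells (9.39% higher). Hspa1b (1.79) and Ier2 (0.99) were higher and Jun (-1.90) lower in newborn than in excitatory neuron-like cells (16.9% of all genes called), and Fos (2.88) was higher and Ier2 (-1.99) lower in GABAergic than in excitatory neuron-like cells (20.3% called). Of the 8 tested between phases, Hspa1a (1.63) was higher in S-like than in G2/M-like RGC-like cells (2.83% of all genes higher), and Jun (1.07) was higher and Dusp1 (-0.75) lower in G1-like IPC-like than in newborn neuron-like cells (17.6% called). Of the same 8, Fos (2.59), Jun (2.39), Hspa1a (2.30) and Hspa1b (1.25) were higher in dividing RGC-like than in dividing IPC-like cells (18.9% of all genes higher), and Hspa1b (-1.54) and Hspa1a (-1.48) were lower in dividing than in G1-like RGC-like cells (11.9% of all genes lower). Their part in the differences of the cyclins and inhibitors was not tested.

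Finally, the genes whose levels ran most alike with each member were listed by Pearson's r of log2(CPM + 10) over 24 class and phase sums from the 2 libraries. The sums share libraries and cell types, so r is a description. Ccne2 was most like Dscc1 (0.950), Cdc6 (0.944) and Pola2 (0.940), of which the first 2 also belong to the S phase list that set the phases, and Ccne1 was most like Fam111a (0.936), Slfn9 (0.925) and Pola2 (0.921). Cdkn2c was most like the mitotic genes Melk (0.981), Ndc80 (0.975) and Cenpn (0.973), of which Ndc80 belongs to the G2/M list that set the phases. For the D-type cyclins these were Tsen15 (0.947) for Ccnd1, Asxl2 (0.924) and Cdk6 (0.921) for Ccnd2, and Ccdc102a (0.976) and Sparc (0.971) for Ccnd3. Cdkn1a was most like G630055G22Rik (0.956) and Trp73 (0.955), and Cdkn1b like Sfpq (0.906). The likeness was lowest for Cdkn1c, with Kcnq1ot1 (0.829) and Mxd4 (0.809). The sum of G1-like RGC-like cells of replicate 2 includes the 2 muscle gene cells, whose part in these values was not tested.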

How the data were processed

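The authors dissociated the dorsal telencephalon with papain, prepared libraries with a 10x Genomics 3′ kit and, per the labels' processing notes, used Cell Ranger 7.0.0 with mm10. The authors deposited unnormalized UMI counts for each barcode and gene. Whether intronic reads were counted is not given in the sources used here. The members and gene lists were chosen with earlier results of these data known.

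Filters of 1000 genes as minimum and 10% mitochondrial UMIs as maximum left 1211 and 1971 barcodes, from which Scrublet doublets were removed (12, 0.991%, and 48, 2.44%). Cells were scaled to 10000 UMIs before taking logs. From 2000 variable genes, without the 9 members and 48 pathway genes, 30 principal components and 20 neighbours gave 20 Leiden clusters at resolution 1 (scanpy 1.11.5, Python 3.11.15). A name needed at least 3 markers raised by a log2 ratio of 1 in at least 25% of cells. The rule that applies the markers was revised after the clusters had been seen, and a cluster of low depth (93 cells) stayed unnamed. Rebuilt names may differ from those of the study. Phases were scored with 41 S and 53 G2/M genes.

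UMIs were summed per class and library for classes of at least 10 cells. All p-values are from edgeR's quasi-likelihood test (4.0.16, R 4.3.3) with TMM, filterByExpr and Benjamini-Hochberg adjustment over all genes tested (14787 for classes, 13696 for dorsal classes by phase), called under 0.05. Approximate standard errors equal the absolute fold change over the root of F. Data were simulated with 200 genes changed 4-fold, 1 dispersion for all genes and no library effect beyond depth, unlike real data. Of the changed genes, 58.0% (S against G2/M in IPC-like cells, 12971 genes) to 88.5% (dividing against G1 in RGC-like cells, 12981 genes) were recovered. False calls made up 2.79% (newborn against excitatory neuron-like) to 6.11% (dividing RGC-like against dividing IPC-like) of the calls. Alternatives included DESeq2 1.42.0, other filters, normalizations and clusterings, and classes made from 50% of the UMIs and tested on the rest. Others were thinning to 5000 UMIs, with shallower cells left out, and fits without cells near a phase cut. Chosen after seeing the data were fits without the cluster with raised IPC markers and without RGC-like and IPC-like cells lacking an Lhx2 UMI. Sums of 1 number came from 1 library, which pairs them: their deviations correlated between classes with a median of 0.0749 (0.00665 to 0.230) for classes and 0.120 (0.0618 to 0.245) by phase. The genes named were the 9 members whatever their result, genes of the pathway lists, and the 3 most alike genes per member. Genes that mark cell types or lead the cells described for Cdkn1c and Cdkn1a, and the context genes of Cajal-Retzius-like cells, were named after their values had been seen.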

Additional observations from a re-analysis of the deposited data

Results flagged for a closer look

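The contrast between dividing and G1-like cells differed between RGC-like and IPC-like cells in Cdkn1c, by -5.72 on the log2 scale (SE 0.77, edgeR adjusted p = 0.000773), with the same sign in both libraries. It was -4.23 without replicate 2 and -7.16 without replicate 4. The difference was 0.07 (edgeR adjusted p = 1.0) when the RGC-like cluster with raised IPC markers was left out, and this choice was made after seeing the data. It also missed the threshold when S and G2/M genes were left out of the clustering (-2.41, edgeR adjusted p = 0.0636), with cells of at least 500 genes (-2.16, edgeR adjusted p = 0.181) and with classes drawn from 50% of the UMIs and tests run on the rest (-1.64, edgeR adjusted p = 0.122).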

How the results depend on the processing

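Of 1641 recomputed fold changes of the 9 genes, 1345 kept their direction and side of the threshold, 80 lost a call, 95 gained one and 121 turned their sign (4 of these from a called difference, and 9 with a call in the alternative), and 13 of 39 called differences were called under every alternative that could be fitted. Thinning to 5000 UMIs kept 23 of the 39 and classes from 50% of the UMIs 28, whereas DESeq2's test kept 37 and the library as a replicate block 39. The block gave 1 further call, Cdkn1b between S-like and G2/M-like RGC-like cells, and otherwise changed only the sign of the uncalled Cdkn1a difference between newborn and excitatory neuron-like cells. Under the replicate block 4746, 2845, 2748, 3304, 1021, 1697, 3735, 2928, 4634, 2814, 213 and 553 genes were called over the 12 comparisons, each within 1.5 times the count without it. Leaving out 1 library moved 72 of 216 values by more than the spread between libraries and turned the sign of 23, none of them among the 78 of called differences. At resolution 0.5 no newborn neuron-like class was found. The causes of the changes below were not tested.

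Of the differences printed above, signs turned for Cdkn1a between RGC-like and IPC-like cells with at least 500 genes per cell (-0.034), for Cdkn1a between GABAergic and excitatory neuron-like cells at 5% mitochondrial UMIs (-3.52, edgeR adjusted p = 0.0193), for Ccnd1 between dividing and G1-like IPC-like cells with doublets kept (-0.14), and the Cdkn2c difference between G1-like IPC-like and newborn neuron-like cells was 0.0 after thinning. For Cdkn1c, IPC-like against newborn neuron-like cells gave 0.019 at resolution 2, 1.004 with at least 500 genes, 0.94 at 5% mitochondrial UMIs (edgeR adjusted p = 0.00327) and 0.87 with classes from 50% of the UMIs, and G1-like IPC-like against newborn neuron-like cells gave 0.21 at resolution 2, 0.21 without S and G2/M genes in the clustering, 1.31 with at least 500 genes, 1.16 at 5% mitochondrial UMIs and 0.97 with classes from 50% of the UMIs (edgeR adjusted p = 0.0395, 0.0325 and 0.0137), and 0.057 with doublets kept. For Cdkn1a, dividing against G1-like RGC-like cells gave 2.39 without cells lacking an Lhx2 UMI (edgeR adjusted p = 0.0421), 3.06 without the cluster with raised IPC markers, 2.11 without S and G2/M genes in the clustering, 3.98 with at least 500 genes and 2.73 at 5% mitochondrial UMIs. The difference between progenitors in dividing against G1 changed sign for Ccnd1 at resolution 0.5 (-0.32) and with classes from 50% of the UMIs (-0.82), and for Cdkn1c without the cluster with raised IPC markers (0.071).

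Counts of called genes were lower after thinning, with 2772 instead of 4423 (RGC-like against IPC-like), 1314 instead of 2639 (IPC-like against newborn neuron-like), 1340 instead of 2500 (newborn against excitatory neuron-like), 285 instead of 717 and 442 instead of 1621 (S against G2/M in RGC-like and IPC-like cells), 1418 instead of 3359 and 879 instead of 2621 (dividing against G1), 1785 instead of 4502 (dividing RGC-like against IPC-like), 1151 instead of 2409 (G1-like IPC-like against newborn neuron-like), and 47 instead of 150 and 144 instead of 427 for the differences between progenitors in S against G2/M and dividing against G1. Classes from 50% of the UMIs gave 1488 (newborn against excitatory neuron-like) and 1834 (dividing against G1 in RGC-like cells). Fits of only the groups compared gave 669 and 1451 for S against G2/M and dividing against G1 in IPC-like cells, and 70 for the difference in S against G2/M. Without the cluster with raised IPC markers 1524 genes were called between dividing and G1-like RGC-like cells, and with doublets kept 4049 between G1-like IPC-like and newborn neuron-like cells. For the differences between progenitors in S against G2/M and dividing against G1, DESeq2's test called 409 and 711, all genes of at least 1 count 354 and 641, and 5% mitochondrial UMIs 248 and 791. The first was 94 without cells near the cut, and the second 103 without the cluster with raised IPC markers, 238 at resolution 2, 179 without S and G2/M genes in the clustering and 201 with at least 500 genes. Testing all genes moved the median of dividing against G1 in IPC-like cells by 0.12, and 5% mitochondrial UMIs moved that of GABAergic against excitatory neuron-like cells by -0.15.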
